A study of Homo sapiens with 6 samples.

Results

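RTL8A, RTL8B, RTL8C, RTL5, RTL6, PEG10 and LDOC1 are human genes that descend from the gag gene of an ancient long terminal repeat retrotransposon. They were taken by name from a table of read counts per Ensembl gene, in which all 7 were found among 63140 genes and all 7 passed the filter on low counts that left 17427 genes for testing. Their identifiers are ENSG00000203950 (RTL8A), ENSG00000212747 (RTL8B), ENSG00000134590 (RTL8C), ENSG00000242732 (RTL5), ENSG00000188636 (RTL6), ENSG00000242265 (PEG10) and ENSG00000182195 (LDOC1). RTL8A, RTL8B and RTL8C carried the older names FAM127B, FAM127C and FAM127A. The set was chosen by the change of RTL8B between miR-34a and control cells, one of the largest falls in the series, and the others were added as its relatives. The values of the 7 genes in this contrast are therefore given as a description, with standard errors and without p-values.

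The cells were HEK293T, an immortalised human embryonic kidney line. The tested cells received a miR-34a duplex (3 libraries) and the comparison cells received AllStars, a commercial negative control siRNA (3 libraries). RNA was harvested 18 h after transfection in both groups, and the series describes the libraries of each condition as biological replicates. The question behind the series is which structural features of the pairing of a microRNA with an mRNA matter for repression. Bulk RNA cannot tell a lower level in every cell from a loss in some of them.

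In animals a microRNA guides an Argonaute protein to mRNAs that pair with its seed, the stretch near its 5′ end, and such mRNAs are commonly translated less and decay faster. The retrotransposon Gag-like (RTL) genes kept the capsid-like part of a Gag protein after the element lost its ability to move. PEG10 is expressed from the paternal allele, makes a longer Gag-Pol protein through a ribosomal frameshift, forms virus-like particles and, in mouse, is needed for the placenta. The 3 RTL8 genes lie side by side on the X chromosome and encode short Gag-like proteins that bind ubiquilin 2. LDOC1, also X-linked, encodes a small leucine zipper protein with a role in the mouse placenta, and RTL5 and RTL6 are known in mouse for microglial responses to microbial products.

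The mature miR-34a-5p, from RefSeq (GRCh38.p14, MIR34A on the minus strand of chromosome 1 at 9151735 to 9151756), is printed with its seed, bases 2 to 8, in capitals, because every match given here is to those bases.
hsa-miR-34a-5p: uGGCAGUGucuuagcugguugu
The transcripts were searched, on the strand of the mRNA, for the 8mer CACTGCCA, the 7mer-m8 CACTGCC, the 7mer-A1 ACTGCCA and the 6mer ACTGCC. Each shorter motif is contained in the 8mer and each place took its longest match. Transcripts and positions are those of GENCODE release 29 on GRCh38, the build named by the submitters, with the transcript of longest coding sequence standing for each gene. Over the 12896 tested genes with an annotated 3′ untranslated region (UTR) of at least 50 nt, the strongest 3′ UTR match was an 8mer in 5.23%, a 7mer-m8 in 10.3%, a 7mer-A1 in 5.4% and a 6mer in 10% of genes.

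Each RTL8 gene held a 7mer or 8mer match in its 3′ UTR, which lies in the only exon of the transcript searched, but the copies held different ones. RTL8B, on chromosome X at 135020504 to 135022529 on the minus strand, had 1 match, an 8mer that starts 413 nt after the stop codon at 135021698 to 135021705. RTL8A, at 135050932 to 135052196 on the minus strand, had an 8mer 410 nt after the stop codon at 135051350 to 135051357 and a 7mer-A1 367 nt after it at 135051394 to 135051400. RTL8C, at 135032366 to 135033546 on the plus strand, had a 7mer-m8 331 nt after the stop codon at 135033056 to 135033062 and a 7mer-A1 368 nt after it at 135033093 to 135033099.

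The 8mer of RTL8B and RTL8A sat at the same place of the aligned 3′ UTRs, and RTL8C differed there by a base within the match. Each sequence below is 22 bases of the mRNA, 5′ to 3′, with the 8 bases of the match or its aligned counterpart in capitals.
RTL8B, 8mer: cagacctgcgctgcCACTGCCA
RTL8A, 8mer: cagacctacgctacCACTGCCA
RTL8C, no match: cagacctgcgctgcCACAGCCA
Counted from 1 at the 5′ end of the RTL8B sequence, RTL8C differed by T18A alone, and RTL8A by G8A and G13A, both outside the match.

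At the second aligned place RTL8A and RTL8C held a 7mer-A1 and RTL8B did not. The 7 bases of the match or its counterpart are in capitals.
RTL8A, 7mer-A1: cctccactcctccagACTGCCA
RTL8C, 7mer-A1: tctcctccccaccagACTGCCA
RTL8B, no match: cctcctcctcaccagACTTCCA
Within the capitals RTL8B differed from RTL8C by G19T, counted from the 5′ end of the RTL8C sequence. At the third place only RTL8C of the 3 copies held a match, a 7mer-m8, and RTL8A differed from it by T19A alone.
RTL8C, 7mer-m8: actggacagaccaccCACTGCC
RTL8A, no match: actggacagaccaccCACAGCC

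RTL6, on the minus strand of chromosome 22 at 44492572 to 44498298, held an 8mer 3989 nt after the stop codon, at 44492841 to 44492848 in the last of its 2 exons, near the far end of a 3′ UTR of 4265 nt. It also held a 7mer-A1 at 1661 nt, 6mers at 1237 and 1712 nt, and a 7mer-m8 in its 5′ UTR. The far 8mer is shown as the strongest match outside the RTL8 genes.
RTL6, 8mer: tttgtatccccttaCACTGCCA
RTL5, on the minus strand of chromosome X at 72127110 to 72131901, held 6mers alone, a pair in the coding sequence and 1 in the 3′ UTR, 1418 nt after the stop codon. LDOC1, on the minus strand of chromosome X at 141175745 to 141177125, held none of the 4 motifs in its transcript. PEG10 lies on the plus strand of chromosome 7 at 94656325 to 94669695. The transcript searched, whose annotated 3′ UTR was only 16 nt, held a 7mer-m8 and 2 6mers, all in the coding sequence. Its longest protein-coding transcript has an earlier stop codon, with 5161 nt after it. There the same 7mer-m8, coding in the transcript searched, lay 438 nt after the stop codon. In that transcript 7mer-A1 matches lay 1399 and 2695 nt after the stop codon. A match is a string of letters and is not a measured binding site.

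**Figure D1:**
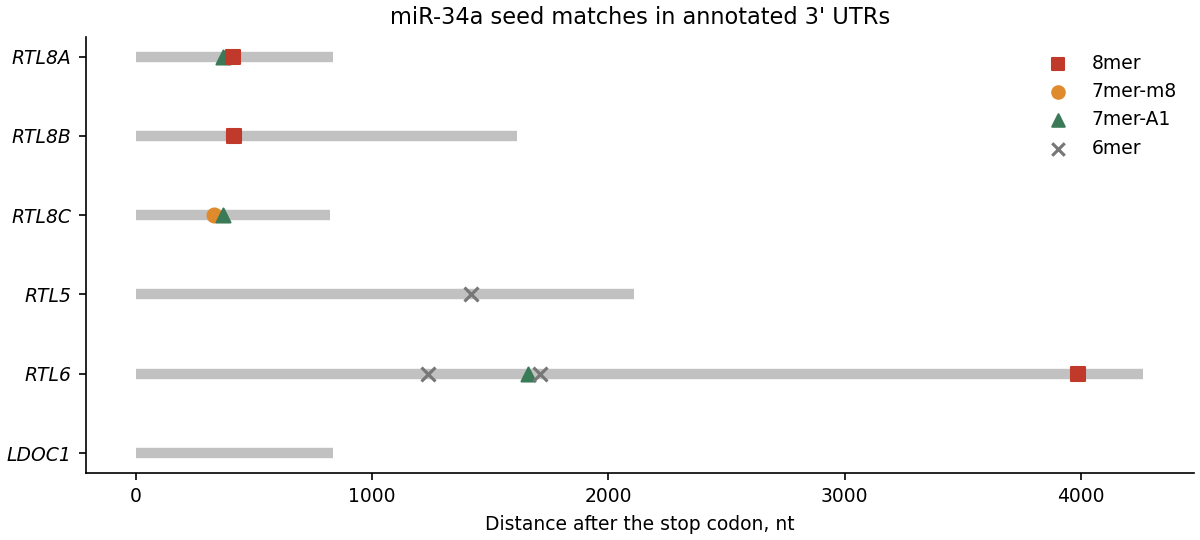
Positions of miR-34a seed matches in the annotated 3′ UTRs of 6 of the genes (grey bars, drawn to scale in nt after the stop codon; markers give the kind of match). RTL8A, RTL8B and RTL8C carry their 7mer and 8mer matches between 331 and 413 nt, RTL6 carries its 8mer at 3989 nt, RTL5 carries a 6mer and LDOC1 none; PEG10, with a 3′ UTR of 16 nt in the transcript searched, is not drawn.

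The libraries held 25198898 to 36650331 counts with miR-34a and 24728662 to 32849065 in the control. In CPM, counts scaled to a common library total with edgeR's trimmed mean of M-values (TMM), transcripts reported in HEK293 lines were present in all 6 libraries, with NEFM at 145 to 185, VIM at 182 to 228, KRT18 at 36.1 to 47.4, KRT8 at 11.2 to 12, LHX1 at 2.62 to 4.01 and PAX2 at 1.14 to 2.24. Of the markers of other cell types, CD3E had 0 counts and PTPRC, PECAM1, ALB, HBB and AFP at most 4 counts in a library. Over all tested genes, 1167 fell and 938 rose with miR-34a (edgeR quasi-likelihood test, Benjamini-Hochberg adjusted p under 0.05). The series calls the replicates biological but does not say what was repeated, such as separate cultures or transfections, so p-values measure the spread between these libraries.

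In 5 of the 7 genes, RTL8A, RTL8B, RTL8C, RTL6 and LDOC1, every miR-34a library was below every control library. Over all 17427 tested genes this held for 14.2%, and since the contrast chose the genes, nothing is read from the difference. The groups overlapped for RTL5 and PEG10. The fold changes fall into clear sizes, with RTL8B lowest, RTL8A and RTL8C next and alike, RTL6 and LDOC1 slightly below 0, and RTL5 and PEG10 close to 0 against their standard errors.

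RTL8B was at 11.5, 8.80 and 9.57 CPM in miR-34a libraries 1, 2 and 3, against 39.4, 38.3 and 39.7 CPM in control libraries 1, 2 and 3. All 3 miR-34a libraries lay far below the control libraries, and the spread within each group was small beside that gap. Its log2 fold change, miR-34a over control, was -1.98 ± 0.10 (SE), or 25.3% of the control level, and ranked 3 from the lowest among all tested genes. Among the 675 tested genes whose strongest 3′ UTR match was an 8mer it ranked 1, where the median log2 fold change was -0.14 and 5% of genes lay below -0.84. It also ranked 1 among the 409 genes with an 8mer as the only 7mer or 8mer match, whose median was -0.12. RTL8B was chosen for the size of its fall in this contrast, so nothing is read from these ranks.

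RTL8A was at 42.8, 49.1 and 37.5 CPM in the miR-34a libraries and at 83.3, 93.0 and 92.8 CPM in the control libraries. The highest miR-34a value, in replicate 2, stayed well under the lowest control value. Its log2 fold change was -1.06 ± 0.08 (SE), 48% of the control level. Among the genes whose strongest match was an 8mer, RTL8A ranked 14 from the lowest. RTL8A was added as a relative of RTL8B and may share its reads, so nothing is read from this rank.

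RTL8C was at 45.3, 41.1 and 39.9 CPM with miR-34a and at 75.6, 84.5 and 79.9 CPM in the control. The groups did not overlap, and the miR-34a libraries were closer together than those of RTL8A. Its log2 fold change was -0.93 ± 0.08 (SE), 52.5% of the control level. It ranked 25 from the lowest among the 1324 genes topped by a 7mer-m8, whose median was -0.08. As with RTL8A, nothing is read from this rank. RTL8B, with 1 match, was thus lower by more than RTL8A and RTL8C, with 2 matches each; no test was made of that difference, because the contrast had chosen the genes.

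**Figure D2:**
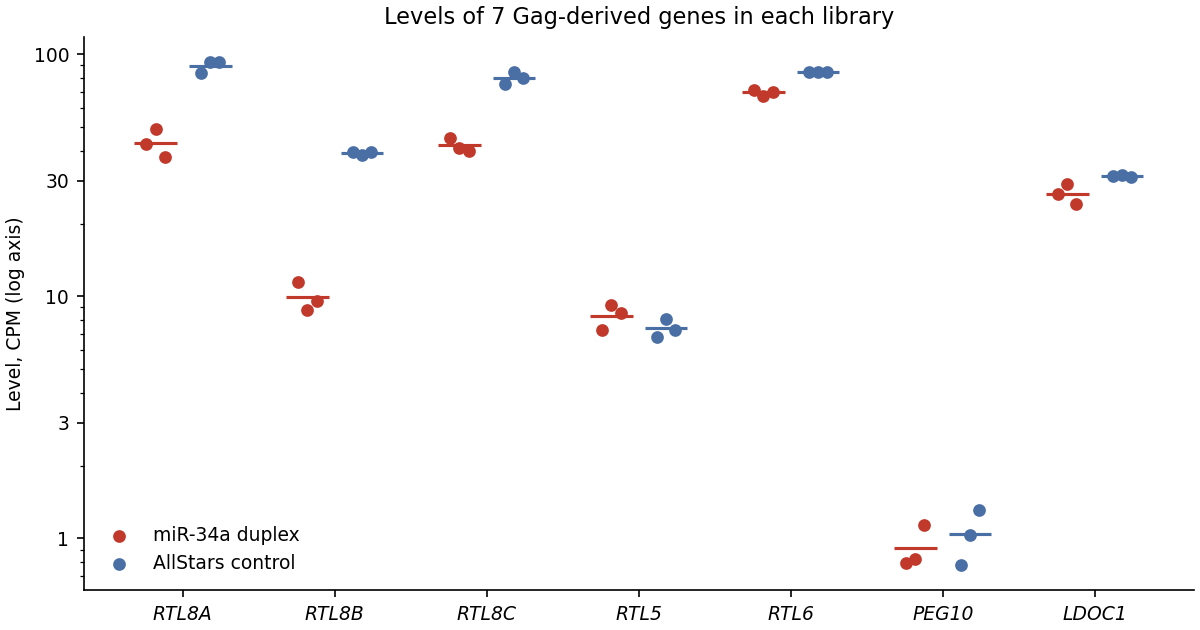
Level of each gene in each library, in CPM on a log axis, with miR-34a libraries (red) left of control libraries (blue); points are libraries and short lines are group means (n = 3 per group). The red points lie below the blue ones for RTL8A, RTL8B, RTL8C, RTL6 and LDOC1 and overlap with them for RTL5 and PEG10.

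The copies are similar enough that reads could be shared, and this bears on the values above. Their coding sequences, 342 nt each, were 96.5% identical between RTL8A and RTL8B, 95.3% between RTL8A and RTL8C and 94.4% between RTL8B and RTL8C. The aligned parts of the 3′ UTRs were 88.7%, 89.5% and 90.7% identical for the same pairs, and RTL8B had 1614 nt of 3′ UTR against 835 nt in RTL8A and 821 nt in RTL8C. Of all 50-base stretches of the transcript, 9.31% in RTL8B, 10% in RTL8A and 8.39% in RTL8C also occurred in an annotated transcript of another gene, in each case another RTL8 copy. The sources used here give neither the read length nor how reads that fit several copies were counted, so the levels of the single copies are uncertain.

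A sum over the copies does not depend on how shared reads were divided among them. It misses any that were discarded, and it counts more than once any that were added in full to several copies. RTL8A, RTL8B and RTL8C together had 2507, 2890 and 3217 counts in the miR-34a libraries and 4850, 7079 and 6834 in the control libraries. On the CPM scale the sum was 95.2 ± 7.11 with miR-34a and 209 ± 9.28 in the control (SD, n = 3 each). The summed log2 fold change was -1.13 ± 0.07 (SE), 45.5% of the control level.

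RTL8B took a smaller share of the RTL8 counts with miR-34a. Its share was 11.5% (95% exact binomial interval 10.3 to 12.8), 8.89% (7.88 to 9.99) and 11% (9.94 to 12.1) in miR-34a libraries 1, 2 and 3, and 19.9% (18.7 to 21), 17.7% (16.9 to 18.7) and 18.7% (17.8 to 19.6) in control libraries 1, 2 and 3. The intervals cover counting error only and take every count as independent, which was not tested, so they may be too narrow. None of those from miR-34a libraries reached one from a control library. RTL8B was chosen for its fall in this contrast, and single counts are not replicates of a condition. Nothing is therefore read from that gap or from the ratios that follow. RTL8B counts per RTL8A count were 0.268, 0.179 and 0.255 with miR-34a and 0.473, 0.412 and 0.427 in the control. Per RTL8C count they were 0.253, 0.214 and 0.24 with miR-34a and 0.521, 0.453 and 0.496 in the control.

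The balance between RTL8C and RTL8A moved little and not in every library. RTL8C counts per RTL8A count were 1.06, 0.836 and 1.06 with miR-34a and 0.907, 0.908 and 0.861 in the control. Replicate 2 of miR-34a, in which RTL8A was highest and RTL8B lowest, lay below the control libraries, and the other miR-34a libraries lay above them. RTL8A made up 45.2% ± 3.78 of the RTL8 counts with miR-34a and 42.9% ± 0.862 in the control, and RTL8C 44.3% ± 2.43 with miR-34a and 38.3% ± 0.764 in the control (SD, n = 3 each).

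**Figure D3:**
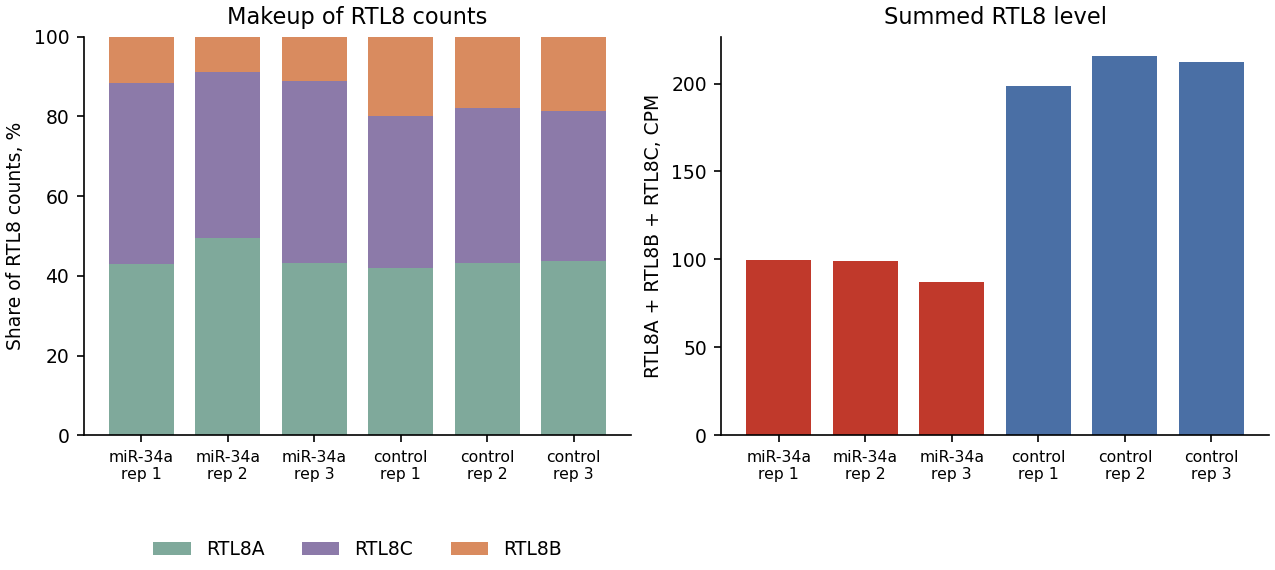
Left, the share of RTL8A, RTL8C and RTL8B in the summed RTL8 counts of each library, in %; right, the summed level in CPM, with miR-34a libraries (red) left of control libraries (blue). The RTL8B share lies between 8.89 and 11.5% with miR-34a and between 17.7 and 19.9% in the control, while the sum lies between 87.0 and 99.6 CPM with miR-34a and between 198 and 216 CPM in the control.

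RTL6, the gene with the distant 8mer, was at 71.3, 67.5 and 70.1 CPM with miR-34a and at 84.4 CPM in each of the control libraries. The groups did not overlap, and the control libraries agreed to within 0.0253 CPM (SD), far tighter than for the other genes. With 2064 to 2768 counts in these libraries, counting error alone is larger than that, so nothing is read from the agreement. Its log2 fold change was -0.28 ± 0.07 (SE), 82.5% of the control level. It ranked 226 from the lowest among the 675 genes with an 8mer.

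LDOC1, the gene with none of the motifs, was at 26.4, 29.1 and 24.0 CPM with miR-34a and at 31.5, 31.8 and 31.1 CPM in the control. The miR-34a libraries were below the control libraries, by least in replicate 2. Its log2 fold change was -0.25 ± 0.08 (SE), 84% of the control level. Genes with no 3′ UTR match, of which there were 8907, had a median log2 fold change of 0.01 with 5% of genes below -0.38, so values of this size were also found among genes without a match.

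RTL5, with 6mers alone, was at 7.23, 9.21 and 8.54 CPM with miR-34a and at 6.79, 8.05 and 7.27 CPM in the control, with a log2 fold change of 0.18 ± 0.13 (SE). The groups overlapped. RTL5 lies within NHSL2 on the opposite strand, without a shared exonic base in this annotation; NHSL2 had a log2 fold change of -0.08 ± 0.14 (SE) and did not pass the test (edgeR adjusted p = 0.80).

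PEG10 had few counts, 20, 24 and 42 in the miR-34a libraries and 19, 34 and 42 in the control libraries. In CPM it was at 0.795, 0.822 and 1.14 with miR-34a and 0.777, 1.04 and 1.31 in the control, with a log2 fold change of -0.18 ± 0.32 (SE) that became 0.02 without control replicate 3. A change of the size seen for RTL6 could not be detected at this depth. PEG10 shares 3.27% of its exonic length with SGCE, a sarcoglycan gene read from the other strand of a common start region, and the sources used here do not say how reads in overlapping genes were counted. Whether overlap lowered the PEG10 counts was not tested. SGCE was at 13.1 ± 1.15 CPM with miR-34a and 12.4 ± 1.14 CPM in the control (SD, n = 3 each), and its log2 fold change, 0.07 ± 0.11 (SE), did not pass (edgeR adjusted p = 0.78).

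**Figure D4:**
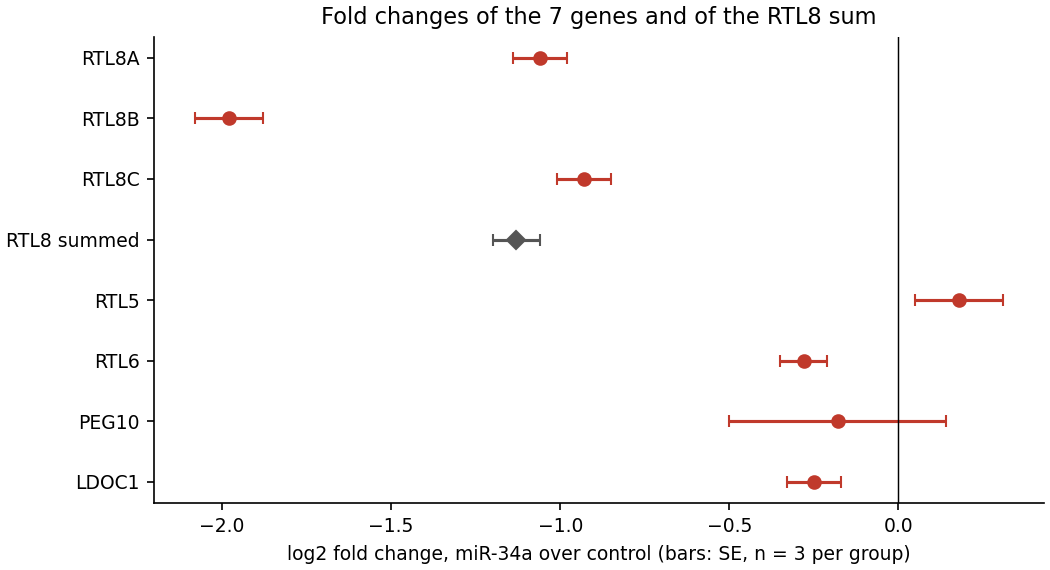
log2 fold change, miR-34a over control, of each gene (red circles) and of the 3 RTL8 genes summed (grey diamond); bars are standard errors of the edgeR fit with 3 libraries per group. RTL8B lies at -1.98, RTL8A, RTL8C and the sum between -1.13 and -0.93, and the others between -0.28 and 0.18.

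Levels between genes can be compared only per length, here as CPM per kilobase of exonic sequence in GENCODE 29. With miR-34a the order was RTL8C at 35.6 ± 2.42, RTL8A at 34.1 ± 4.59, LDOC1 at 19.2 ± 1.84, RTL6 at 12.7 ± 0.347, RTL8B at 4.91 ± 0.681, RTL5 at 1.74 ± 0.211 and PEG10 at 0.137 ± 0.0283 CPM per kilobase (SD, n = 3). In the control it was RTL8A at 70.9 ± 4.38, RTL8C at 67.7 ± 3.76, LDOC1 at 22.8 ± 0.25, RTL8B at 19.3 ± 0.356, RTL6 at 15.4 ± 0.00461, RTL5 at 1.54 ± 0.133 and PEG10 at 0.155 ± 0.0395. The mean ± SD ranges of RTL8A and RTL8C overlapped in both groups. Both genes were measured in the same libraries, and no comparison within libraries was made per length. RTL8B stood above RTL6 in the control and below it with miR-34a. The sequence used for the lengths may differ from that used for counting.

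The genes whose pattern over the 6 libraries was most like that of RTL8B were taken by the smallest Euclidean distance between log2 CPM profiles centred on each gene's mean, among the 12891 genes that averaged 1 or more in log2 CPM. They were NECTIN1 (distance 0.33), MPV17L2 (0.65), SYT1 (0.781), PPP1R11 (0.791) and TPD52 (0.86). Each had an 8mer as its strongest 3′ UTR match, against 5.23% of the tested genes searched for 3′ UTR matches. The share among other genes that fell as far was not tested, so nothing is read from these matches. NECTIN1, an adhesion molecule, was at 7.39, 7.26 and 7.16 CPM with miR-34a and at 26.4, 27.9 and 25.0 CPM in the control. The other genes of this set were lower by 1.36 to 1.49 on the log2 scale. They were picked for a pattern set mostly by the difference between groups, which is also what the test of that difference reads, so no p-value is given for them.

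Among Gag-derived genes outside the 7, MOAP1 passed the test and was lower with miR-34a. The list held 23 other Gag-derived human genes, among them further RTL genes, the PNMA family and ARC, the Gag-like protein of synapses. Of these, 12 were tested, 6 of the others having no count in any library. Among the 12 tested, 1 fell and none rose with edgeR, against 6.7% lower and 5.38% higher over all tested genes; at an unadjusted p under 0.05 the counts were 1 lower and 0 higher, and DESeq2 called 1 and 0. Their median log2 fold change was -0.02, against -0.004 over all tested genes.

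MOAP1 is a PNMA family protein that takes part in apoptosis by binding BAX. It was at 22, 22.5 and 22.6 CPM with miR-34a and at 31.6, 32.6 and 33.4 CPM in the control, so the groups were well apart. The difference was -0.54 ± 0.08 (SE) on the log2 scale, and its Benjamini-Hochberg adjusted p from edgeR was 3.1e-05. Its 3′ UTR holds an 8mer 203 nt after the stop codon, in the last of its 2 exons. The match lies on the minus strand of chromosome 14 at 93182977 to 93182984. It is shown with the 8 bases that every 8mer has by definition in capitals.
MOAP1, 8mer: aggatgtagttctaCACTGCCA
The other 11 tested genes did not pass. RTL10, the other RTL gene with over 1 CPM, had a log2 fold change of -0.04 ± 0.08 (SE), and PNMA1, which had the most counts of the list, 0.02 ± 0.07. ARC, at 1.10 ± 0.122 CPM with miR-34a and 1.44 ± 0.261 CPM in the control (SD, n = 3 each), had -0.40 ± 0.28 (edgeR adjusted p = 0.41).

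**Figure D5:**
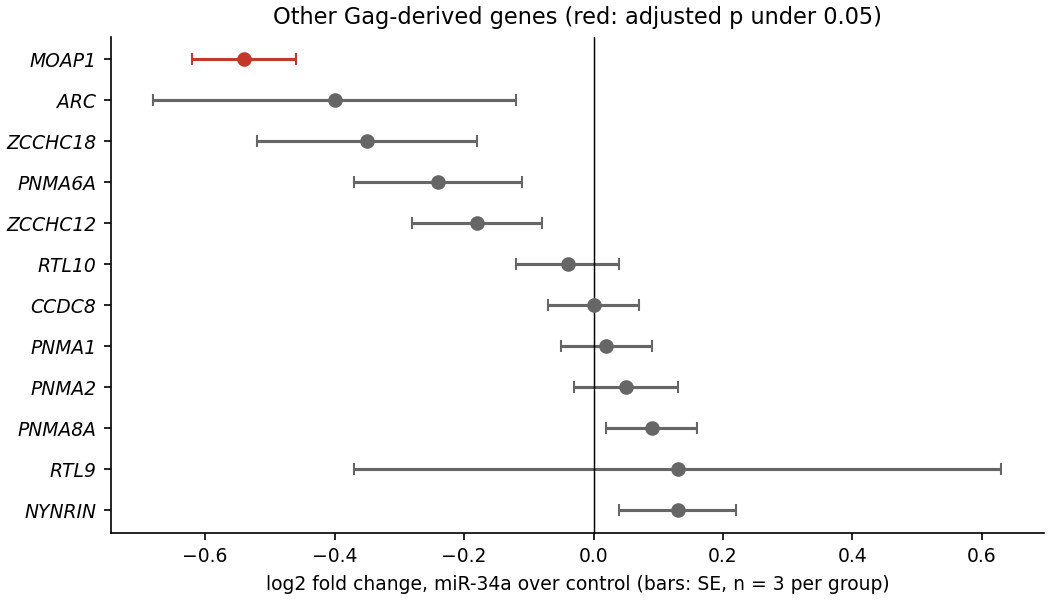
log2 fold change, miR-34a over control, of the 12 tested Gag-derived genes outside the 7, ordered by value; bars are standard errors of the edgeR fit with 3 libraries per group, and red marks an adjusted p under 0.05. MOAP1 at -0.54 is the only red point and the others lie between -0.40 and 0.13.

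UBQLN1, UBQLN2, UBQLN4, UBE3A and USP9X are ubiquitin pathway proteins listed for their part in handling RTL8 and PEG10 proteins, and UBQLN2 is known to limit PEG10 protein. With edgeR, 0 of the 5 fell or rose, against 12.1% called in either direction over all tested genes, so a count of 0 among so few says little about them; 2 were higher at an unadjusted p under 0.05 and DESeq2 called 0. UBQLN2 was at 76.3 ± 3.24 CPM with miR-34a and 76.0 ± 0.484 CPM in the control (SD, n = 3 each). USP9X, a deubiquitinase and the gene of this list with the most counts, was at 605 ± 42 CPM with miR-34a and 543 ± 25.6 CPM in the control (SD, n = 3 each), a log2 difference of 0.16 ± 0.07 (SE) that did not pass (edgeR adjusted p = 0.17). UBQLN1 differed by 0.09 ± 0.07 and did not pass either (edgeR adjusted p = 0.46). UBE3A, a ubiquitin ligase that is itself imprinted in neurons, differed by 0.22 ± 0.08 on the log2 scale, with edgeR adjusted p = 0.071, and passed in 3 alternative fits.

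Of 40 listed imprinted genes, the class to which PEG10 belongs, 27 were tested, and 1 of them, NAA60, fell and none rose with edgeR. Over all tested genes 6.7% fell and 5.38% rose. At an unadjusted p under 0.05, 4 were lower and 2 higher, and DESeq2 called 2 lower and 0 higher. The median log2 fold change of the list was -0.09, against -0.004 over all tested genes. NAA60, an N-terminal acetyltransferase of the Golgi, fell to 23.8 ± 1.34 CPM with miR-34a, against 33.8 ± 2.08 CPM in the control (SD, n = 3 each), a log2 difference of -0.51 ± 0.08 (SE) with an edgeR adjusted p of 0.00012. Its 3′ UTR held none of the motifs. Of its exonic length, 3.596% is shared with AC025283.3, 1.501% with AC004224.2 and 1.203% with MIR6126. SNRPN and SNURF, which have exons in common, were listed at 0 in all 6 libraries; whether reads in their shared exons were left uncounted was not tested, so the 0 does not show that the genes were silent.

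Within 200 kb of an RTL8 gene, 5 other genes were tested, SMIM10, SMIM10L2B, MOSPD1, FAM122C and ZNF75D. Their log2 fold changes lay between -0.26 and 0.15, with edgeR adjusted p-values of 0.46 or higher; 0 were called, against 12.1% in either direction over all tested genes, 0 had an unadjusted p under 0.05 and DESeq2 called 0. None of the 5 had a match to the motifs in its 3′ UTR. MOSPD1, for example, was at 40.1 ± 2.96 CPM with miR-34a and 37.4 ± 0.721 CPM in the control (SD, n = 3 each).

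Around all 7 genes 15 neighbours were tested, of which 1 fell and 1 rose, close to the 6.7% that fell and 5.38% that rose over all tested genes. SHISAL1, a shisa-like membrane protein gene 179721 bp from RTL6 with an 8mer in its 3′ UTR, fell to 8.27 ± 0.965 CPM with miR-34a, against 11.1 ± 0.376 CPM in the control (SD, n = 3 each), with edgeR adjusted p = 0.021. CASD1, a sialic acid acetyltransferase gene 99306 bp from PEG10, rose to 22.4 ± 2.44 CPM with miR-34a, against 17.8 ± 1.75 CPM in the control, with edgeR adjusted p = 0.024. Both calls lay near the threshold. SHISAL1 was not called without miR-34a replicate 1 or 2 or control replicate 2 or 3 (adjusted p = 0.053 to 0.090), where its log2 fold change was -0.44 to -0.35 against -0.42 with all libraries. CASD1 was not called without miR-34a replicate 3 or control replicate 2 or 3 (adjusted p = 0.11 to 0.17), where it was 0.25 to 0.31 against 0.34.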

How the data were processed

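RNA was purified on columns with a DNase step and made into libraries with the TruSeq RNA v2 kit, which does not mark strand, per the labels' protocols. The authors deposited raw counts per Ensembl gene, 1 column per library. The submitters' processing notes name STAR 2.7.11a, featureCounts, Subread 2.0.3, edgeR 3.42.4 and GRCh38; they do not state the annotation release, the strand setting or the handling of multi-mapping reads. Counts were filtered with filterByExpr (minimum count 10, minimum total 15), scaled by TMM and tested over all genes in edgeR 4.0.16 (R 4.3.3) by quasi-likelihood, on group alone, with Benjamini-Hochberg adjustment. DESeq2 1.42.0 served as an alternative. The fit was tested on simulated data. Symbols matched 62541 of 63140 identifiers. Within groups, library pairs gave a chi-square per degree of freedom of 7.64 to 14.3, so none looked deposited in duplicate.

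The members and lists were chosen with earlier results of these data known. Named genes were the 7 members, from each list up to 5 genes past the threshold or else the 2 with the highest mean CPM, neighbours past the threshold and the 5 genes nearest to RTL8B; SGCE, NHSL2, RTL10, PNMA1, ARC, UBQLN2, UBE3A, MOSPD1, ZCCHC12, GNAS and the pair at 0 were named after their values were seen. The RTL8 sum was fitted in place of its 3 genes in the whole table. No protein sequences were used here.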

Additional observations from a re-analysis of the deposited data

How the results depend on the processing

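The log2 fold changes of RTL8A, RTL8B, RTL8C, RTL6, LDOC1, RTL5 and the RTL8 sum kept their sign in all 12 alternatives; with single libraries left out RTL8B ranged from -2.09 to -1.90, RTL8A from -1.16 to -0.97, RTL8C from -0.98 to -0.89, the sum from -1.17 to -1.07, RTL6 from -0.29 to -0.25, LDOC1 from -0.32 to -0.18 and RTL5 from 0.10 to 0.26. PEG10 ranged from -0.37 to 0.02, and its 7mer or 8mer matches numbered 1 in the transcript searched and 3 in its longest ones. With single libraries left out, 727 to 1394 genes fell and 525 to 1287 rose; the counts that moved by over 1.5 times were 727 lower and 604 higher without miR-34a replicate 2, 525 higher without control replicate 2 and 606 higher without control replicate 3. In those fits the calls ranged from 1 to 2 lower among other Gag-derived genes (ZCCHC12 joined without miR-34a replicate 1, adjusted p = 0.020), 0 to 1 higher among the ubiquilin list, 1 to 2 lower and 0 to 1 higher among imprinted genes, and 0 to 1 in each direction among neighbours. UBE3A, on both lists, was the 1 gene called higher when library size alone set the scale (0.24, adjusted p = 0.047) and when the filter was dropped (0.23, adjusted p = 0.029), and GNAS made the lower imprinted genes 2 with DESeq2 (-0.17, adjusted p = 0.037); without control replicate 1 both passed (adjusted p = 0.024 and 0.038). The causes were not tested. With the replicate number as a block, 1023 genes fell and 807 rose, and no call on the lists or neighbours changed. The correlation of deviations of same-numbered libraries was -0.03, 0.02 and -0.08. No miR-34a library correlated best with the control library of its own number. With 3 libraries per group, these values cannot tell whether same-numbered libraries were prepared together. Depth limits PEG10, with at most 42 counts in a library.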
